A study of Mus musculus with 14 samples.

Results

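Large and middle-sized tumors from the lungs of SPC/myc mice were compared over all genes measured on Affymetrix Murine Genome U74v2 arrays. The comparison was chosen by the size that the sample labels give, and it takes 7 of the 14 arrays of the series, 3 of large and 4 of middle-sized tumors. The 3 large tumors measured 10 mm or more and the 4 middle-sized tumors 4 to 5 mm. All 7 came from mice aged 9 to 13 months that were hemizygous for the SPC/myc transgene on the CD2F1-(DBA/2xBalb/C) background, and each tumor came from an animal of its own. The other arrays hold 3 pools of small tumors of 1 mm from mice of the same transgene, with 3 to 4 tumors a pool, and 4 lungs of non-transgenic mice of the same background and age range. The study asked, among other questions, whether gene expression changes with tumor size.

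In this model the promoter of surfactant protein C drives c-Myc in the respiratory epithelium, so every tumor carries the oncogene from the start, and tumors of all sizes were classified as papillary adenocarcinomas. The tumors were cut from the surrounding lung and whole tissue was used, so that RNA of blood vessels, connective tissue and immune cells was measured together with that of the tumor epithelium. In such bulk RNA, fewer cells of a type and less RNA per cell cannot be told apart.

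The transcription factor c-Myc pairs with Max and binds E-box sequences in the promoters of many genes. It is known to raise the production of ribosomes, nucleotides and polyamines and to push cells through the cell cycle. As solid tumors grow, hypoxia, new blood vessels, stroma and infiltrating immune cells are the features most often described to vary with them.

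The values are MAS 5.0 signals, a linear intensity that the authors scaled to a target of 250 on every array. Signals under 70, which the study did not count as expression, were set to 70 before a log2 fold change was taken, so the fold change of a gene near that limit is against the limit and not against its own level. Values of the single tumors are given as deposited and in the order of the replicate numbers in the labels, which are names only. On 13 arrays the trimmed mean signal was 250.1, and 54.7 to 58.7% of the probe sets reached 70 on the other tumor arrays of the comparison. The array of middle-sized tumor 3 stood apart, with 25.2% of its values listed at 0 or just above it. With those values counted, its trimmed mean was 195.8 and 45.3% of the probe sets reached 70, so both figures are lowered by them. Those values were treated as missing, for low and for high signals alike (37.8% of the probe sets with the lowest mean and 15.2% of those with the highest), so that 1227 of the 6914 genes tested have 3 middle-sized tumors. Xist, the transcript of the inactive X chromosome, was above 70 in large tumor 2 (931) and in no other of the 7 tumors, and Eif2s3y, a gene of the Y chromosome, was at 3.84 in that tumor and at 198 to 337 in the other 6. Sftpc, the surfactant protein of alveolar type II cells, had signals of 7768 to 9709 in the large tumors and 8463 to 10550.2 in the middle-sized tumors, and control lung had 6029 to 12067.

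No gene passed the test between the 2 sizes. Of 6914 genes, 0 were called in limma at an adjusted p under 0.05 (0% of the genes tested), and the smallest adjusted p was 0.223. At an unadjusted p under 0.05, 362 genes were higher in large tumors (5.24%) and 315 were lower (4.56%). The signals of the groups did not overlap for 278 genes that were higher in every large than in every middle-sized tumor (4.02%) and for 203 that were lower (2.94%). By log2 fold change, 18 genes were at least 2-fold higher and 49 at least 2-fold lower in large tumors, 0 were at least 3-fold higher and 9 at least 3-fold lower. The median log2 fold change over all genes was 0.02. The study's criteria of a 3-fold ratio and an unpaired test at p under 0.05, with no overlap of the tumors in place of its change calls, were met by 0 genes that were higher (0%) and by 3 that were lower in large tumors (0.0434%). These 3 were the immunoglobulin genes Igha and Igkv9-120 and probe set 93078_at, which has no gene symbol in the annotation used. Igkv9-120 was under 70 in every large tumor, so its ratio is against that limit. Only 1 gene, Ccl9, met the criteria in the lower direction without middle-sized tumor 1, and 8 genes did without middle-sized tumor 2. Igha and Igkv9-120 no longer met them when any tumor other than middle-sized tumor 2 was left out, and 93078_at no longer did without middle-sized tumor 1. The same unpaired test gave 205 higher and 167 lower genes at an unadjusted p under 0.05, and after Benjamini-Hochberg adjustment it called 2 of 6716 genes, Ehmt2 and Spg20. A limma fit of the 7 tumors alone called 0, with 236 genes higher and 211 lower at an unadjusted p under 0.05.

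Single tumors moved these counts. Without middle-sized tumor 4 limma called 4 genes higher in large tumors (Impdh1, Kat2a, Mogs and Rgs5) and 6 lower (93078_at, Cpt1a, Gpx2, Hsd11b1, Inmt and Limch1). Without middle-sized tumor 1 it called 93078_at alone, as lower, and without large tumor 1 it called Mocs1 alone, as higher. Without large tumor 2 the genes at an unadjusted p under 0.05 were 237 higher and 197 lower. With fewer tumors the groups overlap less often by construction, and 658, 437 and 565 genes lay above the middle-sized tumors without large tumor 1, 2 or 3, and 656, 430, 370 and 554 without middle-sized tumor 1, 2, 3 or 4. In the lower direction these counts were 462, 313 and 349 without a large tumor and 382, 299, 312 and 423 without a middle-sized one. With 3 tumors against 4, an exact permutation test of a single gene cannot go below p = 0.0571.

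**Figure D1:**
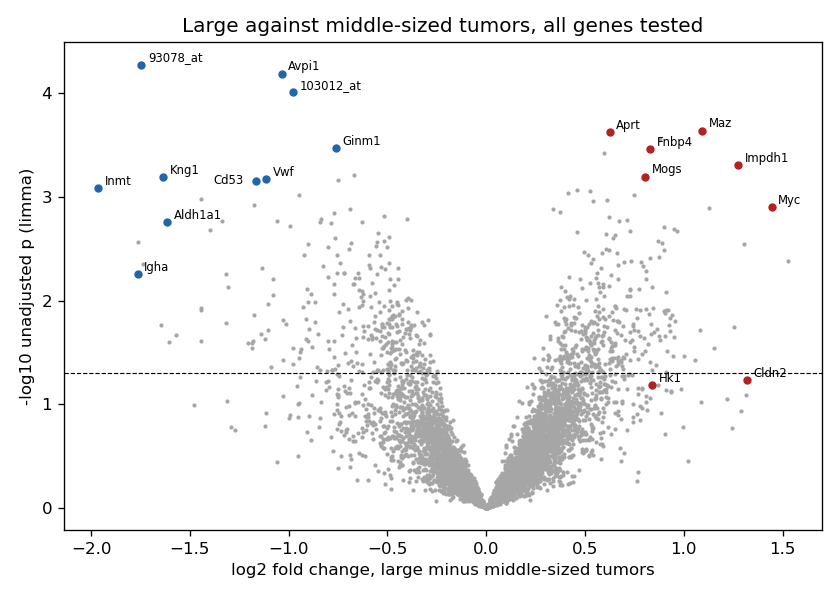
Log2 fold change, large minus middle-sized tumors, on the horizontal axis and the -log10 of the unadjusted p in limma on the vertical axis, for the 6914 genes tested. Each point is a gene, the dashed line marks an unadjusted p of 0.05, and labelled genes are red where higher and blue where lower in large tumors. Probe set 93078_at has the smallest p, Inmt (-1.96) lies farthest to the left, and no gene reached an adjusted p of 0.05.

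The differences between 2 tumors of the same size and between 2 tumors of different size covered overlapping ranges. Over the 5687 genes with 7 values, the median SD of log2 signal was 0.23 in large and 0.32 in middle-sized tumors, and the SD was larger in middle-sized tumors for 3625 genes (63.7%). The median absolute difference between the group means was 0.18, and 67 of the 6914 genes differed by at least 1 on the log2 scale (0.969%). Means of 3 and 4 tumors vary less than single tumors, so the 0.18 cannot be set against the SDs. Taken pair by pair, the median absolute log2 difference between 2 large tumors was 0.24 to 0.27 (3 pairs), that between a large and a middle-sized tumor 0.22 to 0.36 (12 pairs), and that between 2 middle-sized tumors 0.24 to 0.44 (6 pairs). The pairs closest to each other were of different size, large tumor 1 with middle-sized tumor 2 (0.22) and large tumor 3 with middle-sized tumor 4 (0.22). Middle-sized tumors 1 and 4 lay farthest apart (0.44). Of the 3 large tumors only large tumor 2 had its nearest neighbour among the large ones, large tumor 3 (0.24). Middle-sized tumor 3 was nearest to large tumor 1 (0.29).

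**Figure D2:**
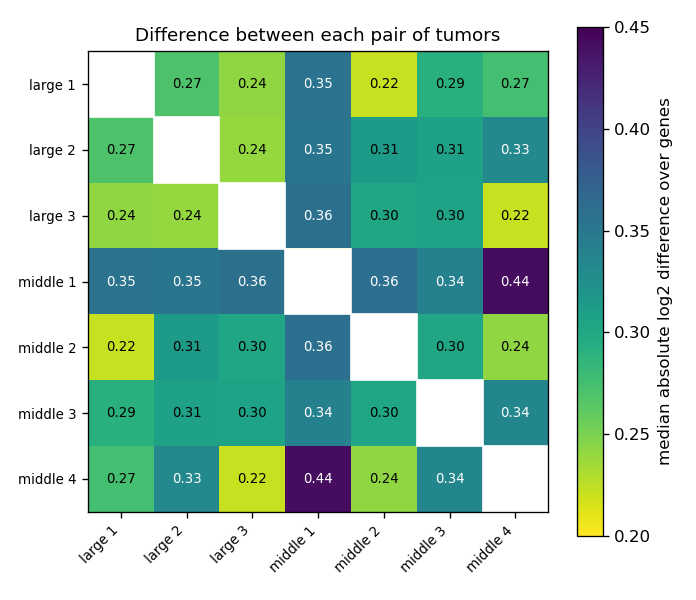
Median absolute log2 difference in signal between each pair of the 3 large (L) and 4 middle-sized (M) tumors, over genes measured in all 7. Lower values mean more similar tumors. The 2 lowest values, both 0.22, join a large with a middle-sized tumor, and the highest, 0.44, lies between middle-sized tumors 1 and 4.

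The genes that varied most within the sizes were chosen by that spread after the values had been seen. Several of them had similar extreme signals in the close pair of large tumor 3 and middle-sized tumor 4. Irx3, an Iroquois homeobox transcription factor, had signals of 1734, 518 and 92.9 in large tumors and 1758, 1429, 944 and 81.2 in middle-sized tumors. It was low in large tumor 3 and in middle-sized tumor 4 alone. Oat, the ornithine aminotransferase, had signals of 1242, 656 and 151 in large tumors and 1973, 2012, 806 and 129 in middle-sized tumors, and Aqp4, a water channel, 639, 952 and 35.1 in large tumors and 850.4, 571, 729.6 and 60.1 in middle-sized tumors. Both again had their lowest signals in the same 2 tumors. Probe set 97282_at, which has no symbol, ran the other way, with 377, 651 and 7854 in large tumors and 411, 188, 400.2 and 9373 in middle-sized tumors. Pon1, the paraoxonase, also had its lowest signals in large tumor 3 and middle-sized tumor 4, with 114, 436 and 7.05 in large tumors and 2719, 471, 199.6 and 58.3 in middle-sized tumors, but was highest in middle-sized tumor 1 alone. Other variable genes did not follow that split. Dlk1, a non-canonical Notch ligand of fetal tissues that is imprinted, had signals of 163, 3629 and 1854 in large tumors and 6297, 560.3, 3829.8 and 1580.0 in middle-sized tumors. Sox2, a transcription factor of airway epithelium, reached 1853 and 497 in middle-sized tumors 1 and 2, and the other 5 tumors had 11.1 to 246.

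The mean signal of Myc was higher in large tumors, but the tumors overlapped. Its signal was 2165, 2008 and 1055 in large tumors and 325, 1246, 451 and 759.6 in middle-sized tumors, against 1391 to 1738 in the small pools and 24.1 to 35.6 in control lung. Large tumor 3 lay below middle-sized tumor 2, and the other large tumors lay above every middle-sized tumor. The mean was 1742 ± 600.4 in large tumors (SD, n = 3) and 696 ± 410.1 in middle-sized tumors (SD, n = 4). The log2 difference was 1.44 with a standard error of 0.36, which did not pass the test (limma, adjusted p = 0.279, and 0.127 without middle-sized tumor 4). The probe set does not tell the transgene from the mouse gene. Its partner Max had 561 to 576 in large tumors and 428 to 639 in middle-sized tumors. Mxd4, which competes with Myc for Max, had signals of 1239, 1442 and 980.3 in large tumors and 1246, 1379, 2475 and 1237 in middle-sized tumors, with the highest on the array that has missing values. Of 10 tested genes of the Myc, Max and Mxd network, 7 had a positive and 3 a negative log2 fold change, with a median of 0.09.

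None of the 10 genes with the smallest p in the higher direction passed the test, and their values are given as a description. Maz, the Myc-associated zinc finger protein, had signals of 205, 176 and 153 in large tumors and 80.6, 101 and 24.2 in middle-sized tumors 1, 2 and 4, and it was missing for middle-sized tumor 3. Impdh1, an enzyme of guanine nucleotide synthesis, had 256, 373 and 523 in large tumors and 94.2, 179, 132 and 239 in middle-sized tumors. Aprt, which salvages adenine, had 113, 139 and 105 in large tumors and 70.6, 91.4, 76.3 and 70.9 in middle-sized tumors. For all 3 genes every large tumor lay above every middle-sized tumor, by log2 fold changes of 1.09 (standard error 0.22), 1.28 (standard error 0.28) and 0.62 (standard error 0.13), each with adjusted p = 0.279 in limma. Control lung had more Impdh1 than any of the 7 tumors, with 542 to 651. Without middle-sized tumor 4 Impdh1 was called in limma (adjusted p = 0.0437), and over all alternatives its adjusted p ran up to 0.888. Mogs, the glucosidase that starts the trimming of N-linked glycans, had signals of 997, 1057 and 1133 in large tumors and 501, 700.2, 458 and 849.5 in middle-sized tumors, and was called in limma without middle-sized tumor 4 as well (adjusted p = 0.0385, range over the alternatives 0.0385 to 0.888). Ehmt2, a histone H3 lysine 9 methyltransferase, had 1134, 1061 and 1095 in large tumors and 799.6, 797, 786 and 805 in middle-sized tumors. The spread of Ehmt2 was narrow within each size, and its log2 fold change was 0.46 (standard error 0.11). The adjusted p of Ehmt2 was 0.279 in limma and 0.0283 by the methods' unpaired test, with 0.559 in limma without large tumor 2 as the highest over the alternatives. Fnbp4, which binds formins, had 365, 409 and 362 in large tumors and 201, 237, 185 and 233 in middle-sized tumors. Bmpr2, the type II receptor for bone morphogenetic proteins, had 107, 105 and 108 in large tumors and 26.4, 78.7, 77.0 and 58.5 in middle-sized tumors, and Atrx, a chromatin remodeller, 87.4, 91.2 and 101 in large tumors and 50.6 to 58.3 in middle-sized tumors. Both stood close to the limit of 70, and Atrx lay below it in all 4 middle-sized tumors. The last 2 of the 10 were probe sets 102937_at and 100947_at, without a symbol, with fold changes of 0.88 and 0.60 on the log2 scale.

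**Figure D3:**
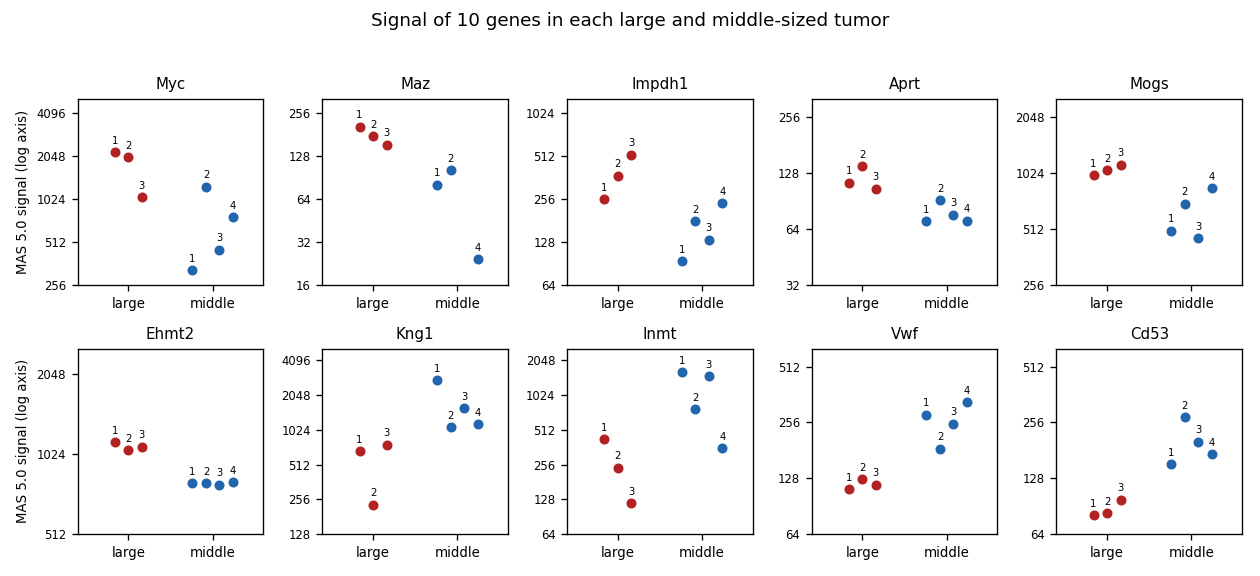
Signals (log axis) of 10 genes in the 3 large tumors, left, and the 4 middle-sized tumors, right, of each panel. Each point is 1 tumor and the number beside it is its replicate number. Myc and Inmt overlap between the sizes, and the other 8 genes do not, although none passed the test.

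The 10 genes with the smallest p in the lower direction did not pass either. Probe set 93078_at had signals of 385, 411 and 449 in large tumors and 2981, 1209, 1035 and 999 in middle-sized tumors, against 4368 to 7058 in control lung. Its log2 fold change was -1.75 (standard error 0.31, limma adjusted p = 0.223), and middle-sized tumor 1 stood well above the other 3 of its size. It was called in limma without middle-sized tumor 1 (adjusted p = 0.0219) and without middle-sized tumor 4 (adjusted p = 0.0385), and the highest adjusted p over the alternatives was 0.782. Kng1, kininogen, the precursor of bradykinin, had 664, 230.4 and 759.8 in large tumors and 2741, 1076, 1558 and 1147 in middle-sized tumors, but only 35.7 to 57.1 in control lung, so tumors of both sizes lay above control lung. Its log2 fold change was -1.63 (standard error 0.38, limma adjusted p = 0.279). Inmt, an indolethylamine N-methyltransferase abundant in normal lung, had 422, 239.9 and 119 in large tumors and 1603, 769.6, 1471 and 354 in middle-sized tumors, where only middle-sized tumor 4 reached into the range of the large ones. The log2 fold change of Inmt was -1.96 (standard error 0.46, limma adjusted p = 0.279), and without middle-sized tumor 4 Inmt was called (adjusted p = 0.0385, range over the alternatives 0.0385 to 0.888). Avpi1, induced by vasopressin in other settings, had 244, 187 and 289 in large tumors and 432, 487, 502 and 521 in middle-sized tumors, and Ginm1, a membrane glycoprotein, 202 to 223 in large tumors and 315 to 395 in middle-sized tumors. Neither overlapped between the sizes. Dalrd3, which takes part in tRNA methylation, had 534, 497 and 480.4 in large tumors and 962, 776 and 685 in the 3 middle-sized tumors with a value. The log2 fold change of Dalrd3 was -0.67, and 0.21 when the value of 0 on the array of middle-sized tumor 3 was kept. Probe set 103012_at had 30.8 to 71.3 in large tumors and 118 to 181 in middle-sized tumors. The remaining 3, Vwf, Cd53 and Sparcl1, belong to the vessels, leukocytes and matrix described further on.

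Genes of ribosome production had mostly higher signals in large tumors. Of 78 genes listed for ribosome biogenesis 61 were on the array and 58 were tested, of which 54 had a positive and 4 a negative log2 fold change, from -0.17 to 0.81, with a median of 0.38 beside 0.02 over all genes. At an unadjusted p under 0.05, 9 were higher and 0 lower, beside 5.24% of all genes in the higher direction, and 5 lay above every middle-sized tumor, beside 4.02% of all genes. The 9 became 12, 2 and 4 when large tumor 1, 2 or 3 was left out, and 4, 20, 4 and 30 when middle-sized tumor 1, 2, 3 or 4 was left out. At that p, of all 6914 genes, 380, 237 and 327 were higher without large tumor 1, 2 or 3. Without middle-sized tumor 1, 2, 3 or 4 they were 429, 390, 316 and 538. Nolc1, a nucleolar phosphoprotein, had signals of 146, 203 and 155 in large tumors and 21.7, 127, 22.2 and 139 in middle-sized tumors. Wdr43, a part of the machinery that processes the small ribosomal subunit, had 598, 908 and 768 in large tumors and 380.3, 463, 502 and 580.3 in middle-sized tumors, and Polr1b, a subunit of RNA polymerase I, had 301, 511 and 298 in large tumors and 247, 210.1, 272 and 243 in middle-sized tumors. In each of these the large tumors lay above all middle-sized tumors, by log2 fold changes of 0.79 (standard error 0.23), 0.65 (standard error 0.18) and 0.56 (standard error 0.21). Rrs1, a regulator of ribosome assembly, had 556, 782 and 480.4 in large tumors and 162, 535, 286 and 534 in middle-sized tumors, and Nhp2, a protein of small nucleolar ribonucleoproteins, 1893, 2338 and 1929 in large tumors and 635, 1498, 1111 and 2195 in middle-sized tumors. Middle-sized tumors 1 and 3 were the lowest in both genes, middle-sized tumors 2 and 4 overlapped with the large ones for Rrs1, and only middle-sized tumor 4 did for Nhp2. Middle-sized tumors 1 and 3 were also the lowest in the list as a whole, with a summed signal over 44 members of 25774, 33518 and 27800 in large tumors and of 14712, 26365, 20170 and 31103 in middle-sized tumors, beside 11448 to 12171 in control lung. Without middle-sized tumor 1 the median log2 fold change of the list was 0.20, and without middle-sized tumor 4 it was 0.52.

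Since c-Myc binds the E-box with the letters CACGTG, which reads the same on both strands, these letters were searched in promoters from 250 bases before to 50 bases after the start site (RefSeq, GRCm38.p6). They were found in 12 of the 53 tested ribosome biogenesis genes that have a promoter in the table (22.6%), in 610 of 4944 of all genes tested (12.3%) and in 2187 of 27025 genes of the table (8.09%). Other lists with mostly higher signals in large tumors had shares on both sides of these, with 8 of 28 translation factors and tRNA synthetases (28.6%), 3 of 20 ribosomal proteins (15%) and 1 of 24 nucleotide, one-carbon and polyamine genes (4.17%), and so did lists with mostly lower signals, with 6 of 21 immediate early genes (28.6%) and 2 of 26 macrophage genes (7.69%). A match is a description of the letters and not a bound site. Shown, with the E-box in capitals, are promoters of the 3 list members with the letters that had the largest log2 fold changes. The E-box begins at base 18 after the start site in Wdr43, base 60 before it in Nop2 and base 25 after it in Tsr1. The window searched keeps every match close to the start site.
Wdr43, chr17:71615965-71616264, plus strand: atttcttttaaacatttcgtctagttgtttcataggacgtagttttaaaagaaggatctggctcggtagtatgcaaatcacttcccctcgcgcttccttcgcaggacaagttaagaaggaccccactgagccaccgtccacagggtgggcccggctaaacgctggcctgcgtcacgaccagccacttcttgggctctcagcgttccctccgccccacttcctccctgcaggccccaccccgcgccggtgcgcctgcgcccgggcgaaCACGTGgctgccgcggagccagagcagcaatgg
Nop2, chr6:125131633-125131932, plus strand: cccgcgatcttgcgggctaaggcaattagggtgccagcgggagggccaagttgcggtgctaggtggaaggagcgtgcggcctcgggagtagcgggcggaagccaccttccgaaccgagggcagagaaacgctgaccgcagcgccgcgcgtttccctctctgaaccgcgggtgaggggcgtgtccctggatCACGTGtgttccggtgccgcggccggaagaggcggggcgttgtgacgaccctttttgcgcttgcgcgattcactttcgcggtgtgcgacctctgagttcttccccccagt
Tsr1, chr11:74897830-74898129, plus strand: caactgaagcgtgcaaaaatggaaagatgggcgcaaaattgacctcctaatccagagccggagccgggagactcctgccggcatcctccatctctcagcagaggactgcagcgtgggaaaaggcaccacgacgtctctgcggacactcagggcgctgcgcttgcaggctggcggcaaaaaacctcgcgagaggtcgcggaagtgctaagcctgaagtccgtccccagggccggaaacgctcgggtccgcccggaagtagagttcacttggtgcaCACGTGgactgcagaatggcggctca
Nop2, which methylates the RNA of the large ribosomal subunit, had signals of 474, 449 and 581 in large tumors and 242, 352, 213 and 665 in middle-sized tumors. Tsr1, an assembly factor of the small subunit, had 1043, 1414 and 934 in large tumors and 494, 981, 603 and 1211 in middle-sized tumors. Nop2 overlapped between the sizes through middle-sized tumor 4, and Tsr1 through middle-sized tumors 2 and 4. Their log2 fold changes of 0.59 (standard error 0.31) and 0.53 (standard error 0.27) did not pass the test (limma, adjusted p = 0.576 and 0.561).

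All 23 cytosolic ribosomal proteins tested had a positive log2 fold change, from 0.20 to 0.66, with a median of 0.33, and 3 were higher at an unadjusted p under 0.05, beside 5.24% of all genes (1 without large tumor 1 or 2 or middle-sized tumor 1, and 6 without large tumor 3). Of all 6914 genes, 380, 237 and 429 were higher at that p without large tumor 1, large tumor 2 or middle-sized tumor 1. Without large tumor 3 that count was 327. The median was 0.13 without middle-sized tumor 1 and 0.17 without large tumor 2. Rpl10a had signals of 7257, 9775 and 6389 in large tumors and 2757, 5979 and 7034 in middle-sized tumors 1, 2 and 4. Rpsa had 3430.2, 3938 and 3075 in large tumors and 1415, 2384, 2967 and 3141 in middle-sized tumors, and Rpl22 had 814, 768 and 704 in large tumors and 356, 655, 531 and 575 in middle-sized tumors. Middle-sized tumor 1 was the lowest in all 3, and only Rpl22 did not overlap between the sizes. In the list as a whole 1 of 23 was higher without overlap (4.35%), beside 4.02% of all genes. A dimmer probe set of Rpl22 overlapped, with 85.4, 111 and 111 in large tumors and 166, 89.0, 138 and 60.7 in middle-sized tumors (log2 fold change -0.11), and there middle-sized tumor 1 was the highest. Of 42 translation factors and tRNA synthetases, 34 had a positive and 8 a negative log2 fold change (median 0.17, and 0.05 without middle-sized tumor 1). Cars, the cysteinyl-tRNA synthetase, stood against the others, with 74.0, 19.0 and 44.9 in large tumors and 113, 141, 102 and 156 in middle-sized tumors. Of 27 genes of nucleotide, one-carbon and polyamine synthesis, 23 had a positive and 4 a negative log2 fold change (median 0.23). Cad, which starts pyrimidine synthesis, had 377, 469 and 336 in large tumors and 119.9, 229, 160.2 and 518 in middle-sized tumors, and Srm, the spermidine synthase, 586, 1129 and 1032 in large tumors and 172, 808, 291 and 1104 in middle-sized tumors. Both were lowest in middle-sized tumors 1 and 3. Hspd1, the mitochondrial chaperonin, did not overlap, with 4277, 3996 and 4083 in large tumors and 2633, 3371, 2333 and 3098 in middle-sized tumors. Of 28 heat shock proteins and chaperonins, 1 was higher without overlap (3.57%), beside 4.02% of all genes.

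**Figure D4:**
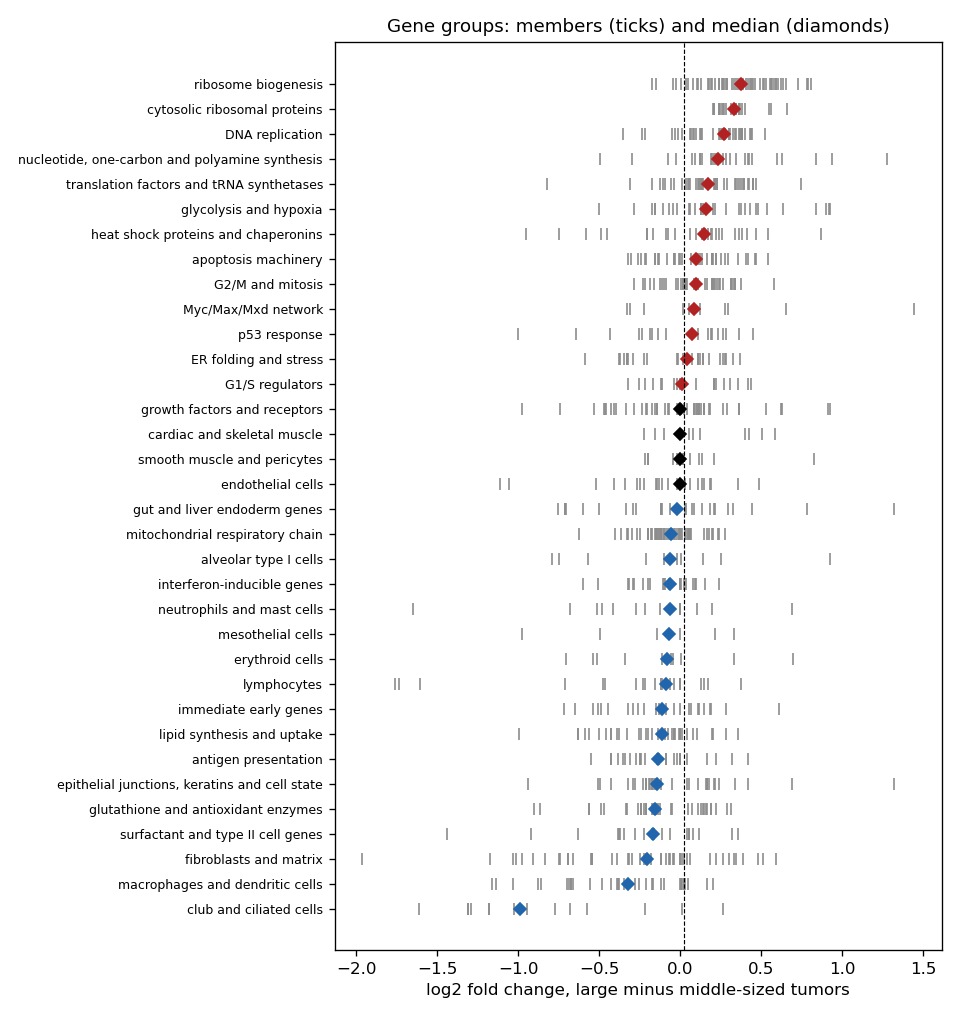
Log2 fold change, large minus middle-sized tumors, of the members of each gene list. Ticks are single genes, diamonds are list medians, and the dashed line is the median of all 6914 genes tested. Ribosome biogenesis (median 0.38) lies farthest to the right and club and ciliated cells (median -0.99) farthest to the left, and no member of any list passed the test.

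Genes of DNA replication and mitosis divided the tumors by other lines than size. Of 39 replication genes, 33 had a positive and 6 a negative log2 fold change (median 0.27), and 0 reached an unadjusted p under 0.05. Without large tumor 1 the numbers were 17 and 21, with a median of -0.01. Of 38 genes of G2/M and mitosis, 27 had a positive and 11 a negative log2 fold change (median 0.10), and without large tumor 1 they were 5 and 33 (median -0.33). The median of that list was also negative without middle-sized tumor 1 (-0.04) or 4 (-0.07), and it was 0.46 without large tumor 3. The proliferation marker Mki67 had signals of 626, 241 and 33.7 in large tumors and 120.2, 435, 224 and 50.6 in middle-sized tumors, against 14.8 to 33.8 in control lung. Mad2l1, of the spindle checkpoint, had 675, 182 and 143 in large tumors and 156, 421, 259 and 105 in middle-sized tumors, and Ccna2, cyclin A2, 799, 405 and 285 in large tumors and 321, 555, 536 and 172 in middle-sized tumors. In all 3 genes large tumor 1 was highest, middle-sized tumor 2 was the highest of its size, and large tumor 3 and middle-sized tumor 4 were the lowest of theirs. A dimmer probe set of Mki67 had another order, with 62.3, 127 and 95.0 in large tumors. Its signals were 150, 52.4 and 42.5 in middle-sized tumors 1, 2 and 4. The summed signal of 34 mitotic genes was 18900, 9567 and 5867 in large tumors and 7454, 17812, 12258 and 5868 in middle-sized tumors, beside 13570 to 19732 in the small pools and 4320 to 4717 in control lung. Cdk4, the kinase of the G1 phase, did not overlap between the sizes in the tumors with a value, with 1899.9, 1868 and 1737 in large tumors and 1120.4, 1679 and 1566 in middle-sized tumors 1, 2 and 4. The log2 fold change of Cdk4 was 0.36 (standard error 0.19, limma adjusted p = 0.585). Another probe set of Cdk4, with a value in all 7 tumors, overlapped, with 900.4, 614 and 699 in large tumors and 269, 752, 382 and 692 in middle-sized tumors. Among the other 18 G1/S genes tested the sizes overlapped, so 1 of 19 lay above every middle-sized tumor (5.26%), beside 4.02% of all genes. Ccne1, cyclin E1, had 256, 148 and 278 in large tumors and 133, 190.4, 166 and 165 in middle-sized tumors.

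**Figure D5:**
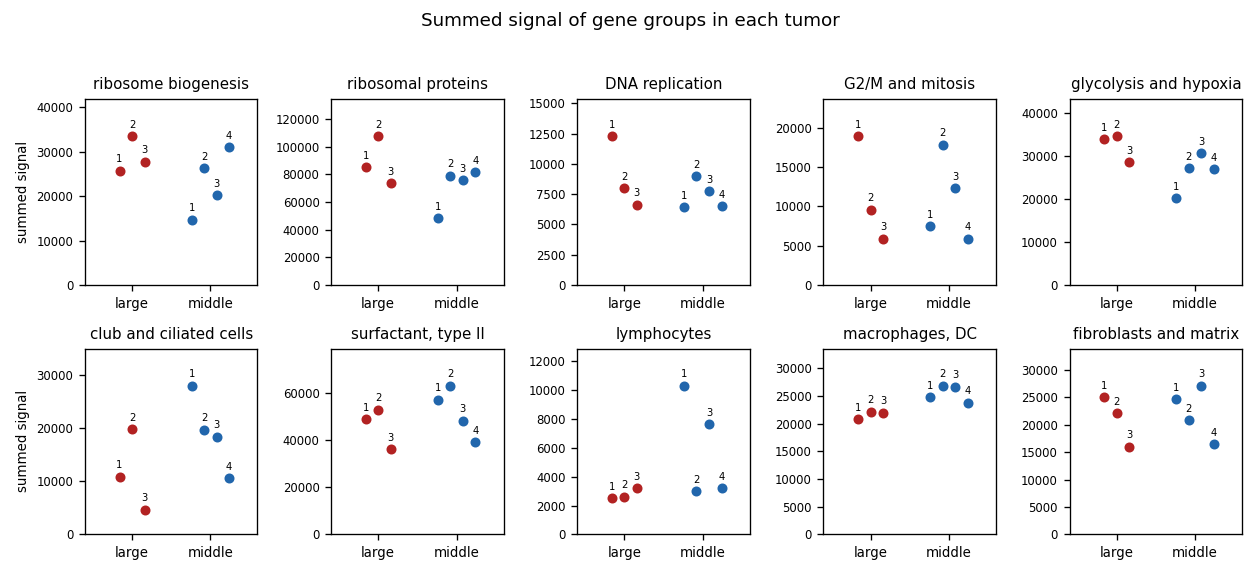
Summed signal (linear axis from 0) of 10 gene lists in each large tumor, left, and each middle-sized tumor, right, of a panel, over list members measured on all arrays. Points are tumors with their replicate numbers. Mitotic genes range from 5867 to 18900 in large and from 5868 to 17812 in middle-sized tumors, and the macrophage list is lower in all 3 large tumors.

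Several genes that answer to hypoxia had higher signals in some large tumors. Of 31 genes of glycolysis and hypoxia, 22 had a positive and 9 a negative log2 fold change (median 0.16). At an unadjusted p under 0.05, 7 were higher (beside 5.24% of all genes). Without large tumor 2 only 1 was higher, beside 237 of all 6914 genes. No member lay above every middle-sized tumor in all 3 large tumors, and 1 lay below (3.23%), beside 4.02% and 2.94% of all genes. Vegfa, the growth factor of vessels, had signals of 1291, 417 and 852 in large tumors and 358, 322, 345 and 684 in middle-sized tumors, at a log2 difference of 0.93 (standard error 0.34, limma adjusted p = 0.413). Pdk1, which holds pyruvate back from the mitochondria, had 556, 1009 and 287 in large tumors and 301, 205, 417 and 269.9 in middle-sized tumors, and Car12, a carbonic anhydrase of the cell surface, 128, 296 and 259 in large tumors and 78.7, 84.9, 124 and 209 in middle-sized tumors. The highest large tumor was a different one for Vegfa than for Pdk1 and Car12, and each gene overlapped between the sizes. Epas1, which encodes the hypoxia-inducible factor HIF-2 alpha, had 365, 553 and 398 in large tumors and 383, 301, 321 and 162 in middle-sized tumors. Hk1, a hexokinase, had 6272, 6878 and 5679.5 in large tumors and 1313, 5976, 3821 and 4984 in middle-sized tumors, the lowest again being middle-sized tumor 1.

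Genes of mitochondrial respiration, fat metabolism and antioxidant defence had mostly lower signals in large tumors. Of 57 genes of the respiratory chain 37 had a negative log2 fold change (median -0.06, and 0.00 without large tumor 3), of 36 lipid genes 26 (median -0.12), and of 38 glutathione and antioxidant genes 25 (median -0.15, and -0.07 without middle-sized tumor 1). Cpt1a, which takes fatty acids into the mitochondria, had signals of 720.4, 527 and 587 in large tumors and 1326, 1304, 1729.8 and 714 in middle-sized tumors, and Gpx2, a glutathione peroxidase, 169.6, 139.7 and 143 in large tumors and 362, 287, 370.4 and 161 in middle-sized tumors. In both, middle-sized tumor 4 alone lay within the range of the large tumors, and the log2 fold changes were -0.995 (standard error 0.26) and -0.90 (standard error 0.25). Without that tumor both were called in limma (adjusted p = 0.0385 for each), and over the alternatives the adjusted p of both ran up to 0.888. Me1, malic enzyme, which supplies NADPH, had 1498, 1369.7 and 1080.1 in large tumors and 2396, 2182, 1759 and 1599 in middle-sized tumors without overlap. Gsta4, a glutathione transferase, had 283, 387 and 308 in large tumors and 766, 715, 395 and 561 in middle-sized tumors, and Uqcrq, a subunit of complex III, 1528, 1312 and 1165 in large tumors and 1534, 1719, 2013 and 1788 in middle-sized tumors. Neither overlapped, though the nearest tumors of Uqcrq differed by little. In each of the respiratory, lipid and antioxidant lists 1 member was lower without overlap (1.75, 2.78 and 2.63%), beside 2.94% of all genes.

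Most markers of airway cells had a negative log2 fold change, but the single tumors overlapped in nearly all of them. Of 14 genes of club and ciliated cells tested, 12 had a negative and 2 a positive log2 fold change, with a median of -0.99 that was -0.48 without middle-sized tumor 1 and -1.33 without large tumor 2. Aldh1a1, a retinaldehyde dehydrogenase, had signals of 498, 499 and 304 in large tumors and 3339, 697, 1425 and 844 in middle-sized tumors, without overlap, at a log2 difference of -1.61 (standard error 0.42, limma adjusted p = 0.279). Of the 14 genes, 1 was lower without overlap (7.14%), beside 2.94% of all genes. A dim second probe set of Aldh1a1 overlapped, with 56.7, 104 and 61.4 in large tumors and 75.8, 34.0 and 28.3 in middle-sized tumors 1, 2 and 4 (log2 fold change 0.15). Ces1d, a carboxylesterase, had 689, 1356 and 326 in large tumors and 1833, 2261, 2387 and 781 in middle-sized tumors. Scgb1a1, the secretory protein that defines club cells, had 4726, 9957 and 2259 in large tumors and 8472, 8791, 6894 and 4833 in middle-sized tumors, so that large tumor 2 was the highest of all 7. The summed signal of the 14 genes was 10915, 19867 and 4674 in large tumors and 28075, 19763, 18417 and 10630 in middle-sized tumors. Only large tumor 3 lay below every middle-sized tumor in that sum. Among 20 surfactant and type II cell genes 13 had a negative log2 fold change (median -0.17, -0.05 without large tumor 3 and -0.35 without middle-sized tumor 4). Napsa, the protease that matures surfactant protein B, had 1900.0, 3302 and 2649 in large tumors and 6829, 6986, 3746 and 3080.0 in middle-sized tumors, while Sftpb had 9207, 11012 and 7755 in large tumors and 7088, 9159 and 9524 in middle-sized tumors 1, 2 and 4. Hc, complement component C5, had 626, 189.9 and 629.5 in large tumors and 2121, 1834, 894 and 493 in middle-sized tumors.

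Macrophage markers were lower in large tumors, as a list without overlap. The summed signal of 33 genes of macrophages and dendritic cells was 20767, 22132 and 21979 in large tumors and 24796, 26832, 26673 and 23748 in middle-sized tumors. Of 35 genes tested 25 had a negative and 9 a positive log2 fold change (median -0.32, and -0.19 without middle-sized tumor 2), with 9 lower at an unadjusted p under 0.05 (beside 4.56% of all genes), a count of 5 to 12 when 1 of the 7 tumors was left out, lowest without large tumor 2 and 6 without middle-sized tumor 2. The highest count came without middle-sized tumor 4. Of all 6914 genes, 197, 303 and 434 were lower at that p without large tumor 2, middle-sized tumor 2 and middle-sized tumor 4. Cd53, a tetraspanin of leukocytes, had signals of 80.9, 83.2 and 98.3 in large tumors and 153, 273, 202 and 173 in middle-sized tumors. Tyrobp, an adaptor of myeloid receptors, had 191, 131 and 194 in large tumors and 238, 403, 228 and 261 in middle-sized tumors, and Cd14, the co-receptor for endotoxin, 1441, 1129.5 and 1024 in large tumors and 1673, 1588, 3012 and 1563 in middle-sized tumors. Ctss, cathepsin S, had 1264, 956 and 1253 in large tumors and 1342, 1908, 1461 and 1515 in middle-sized tumors. These 4 genes did not overlap between the sizes, and the largest of the differences, that of Cd53, was -1.16 on the log2 scale (standard error 0.27, limma adjusted p = 0.279). Of the 35 genes tested, 6 lay below every middle-sized tumor in all large tumors (17.1%), beside 2.94% of all genes. The markers that define the list differed less, with Cd68 at 329.9 to 353 in large tumors and 340.2 to 497 in middle-sized tumors and a log2 fold change of -0.28 (standard error 0.19). C1qa had 792, 642 and 558 in large tumors and 809.8, 816, 727 and 617 in middle-sized tumors, and Csf1r 243, 216 and 198 in large tumors and 336, 273, 181 and 222 in middle-sized tumors. Mmp12, an elastase of macrophages, had 777, 225 and 764 in large tumors and 963, 1346, 1159.7 and 522 in middle-sized tumors.

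Immunoglobulin transcripts were high in some middle-sized tumors. Igha, the heavy chain of immunoglobulin A, had signals of 574, 404 and 774 in large tumors and 3901, 819, 3087 and 1370.4 in middle-sized tumors, and Jchain, which joins its chains, 135, 95.6 and 170.4 in large tumors and 950.0, 176, 724 and 291 in middle-sized tumors. Middle-sized tumors 1 and 3 were high in both, and middle-sized tumor 2 lay just above the large ones. The log2 fold changes were -1.76 (standard error 0.54) and -1.74 (standard error 0.51), with adjusted p = 0.350 and 0.334 in limma. Igkv9-120, a variable segment of the kappa chain, had 63.9, 40.1 and 64.1 in large tumors and 399, 98.9, 407 and 197 in middle-sized tumors. Ighm, the heavy chain of immunoglobulin M, had 301, 241 and 543 in large tumors and 2459, 455, 2043 and 501 in middle-sized tumors and overlapped. Immunoglobulin genes share sequence and the array carries further probe sets for them, so these values do not count as independent genes. A dim second probe set of Igha overlapped, with 30.4, 44.2 and 39.8 in large tumors and 152, 36.6 and 37.9 in middle-sized tumors 1, 2 and 4. The small pools varied as widely, with Igha at 2993, 885 and 563. The summed signal of 24 lymphocyte genes was 2509, 2608 and 3221 in large tumors and 10313, 3001, 7636 and 3207 in middle-sized tumors.

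Markers of vessels and connective tissue differed in both directions. Of 31 endothelial genes tested 9 had a positive and 14 a negative log2 fold change, and the median was 0. Vwf, the von Willebrand factor, had signals of 112, 126 and 118 in large tumors and 282, 185, 252 and 329.6 in middle-sized tumors, at a log2 difference of -1.11 (standard error 0.26, limma adjusted p = 0.279). Cldn5, the claudin of endothelial tight junctions, had 84.3, 24.1 and 102 in large tumors and 139, 161, 260.1 and 162 in middle-sized tumors. Both were without overlap and far under control lung, where Vwf had 1484 to 2386 and Cldn5 3046 to 3489. Of the 31 endothelial genes, 2 were lower without overlap (6.45%), beside 2.94% of all genes. Cdh5, VE-cadherin, had 338, 198 and 321 in large tumors and 404, 258, 321 and 166 in middle-sized tumors, and Pecam1 140.0, 154 and 179 in large tumors and 72.7, 146, 154 and 138 in middle-sized tumors. Control lung had 2241 to 3362 for Cdh5 but only 78.8 to 162 for Pecam1. The probe set of Pecam1 thus did not stand far higher in control lung, as those of Vwf, Cldn5 and Cdh5 did. Of 49 genes of fibroblasts and matrix 14 had a positive and 33 a negative log2 fold change (median -0.21, and -0.07 without large tumor 3). Without overlap, 1 was higher (2.04%) and 3 were lower (6.12%), beside 4.02% and 2.94% of all genes. Pdgfra, a receptor for platelet-derived growth factor, had 146 to 252 in large tumors and 755, 296, 426 and 266 in middle-sized tumors, without overlap. Another probe set of Pdgfra, near the limit, overlapped and ran the other way, with a mean of 91.0 in large tumors and of 72.3 in middle-sized tumors 1, 2 and 4 (log2 fold change 0.17). Sparcl1, a matricellular protein, had 407, 299 and 263 in large tumors and 618, 455 and 543 in middle-sized tumors 1, 2 and 4, and Eln, elastin, 1294, 474 and 431 in large tumors and 1602, 1105, 1846 and 862 in middle-sized tumors. Timp2, an inhibitor of matrix metalloproteinases, ran the other way, with 312, 363 and 367 in large tumors and 209, 289, 267 and 217 in middle-sized tumors. Col1a1, the main fibrillar collagen, had 1085, 329.6 and 268 in large tumors and 468, 760.3, 667 and 426 in middle-sized tumors.

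Genes of the epithelium itself and of foregut or liver differentiation showed no common direction. Of 35 genes of epithelial junctions, keratins and cell state 15 had a positive and 20 a negative log2 fold change (median -0.14, and 0.03 without large tumor 2), and of 26 gut and liver endoderm genes 13 had a positive and 13 a negative one (median -0.02, and 0.26 without large tumor 1). Cldn2, a claudin that forms channels in tight junctions, had signals of 612, 1155 and 953 in large tumors and 63.1, 688, 431 and 736 in middle-sized tumors, against 5.71 to 11.6 in control lung. Its log2 fold change of 1.32 (standard error 0.64) did not pass the test (limma, adjusted p = 0.534), and middle-sized tumor 1 was again far below the other tumors. Epcam, an adhesion molecule of epithelia, had 349, 214 and 309 in large tumors and 439, 438, 454 and 311 in middle-sized tumors, and Prom1, prominin, 27.9, 51.7 and 53.1 in large tumors and 358, 63.3, 89.1 and 145 in middle-sized tumors. Epcam overlapped through large tumor 1, and Prom1 stayed under the limit of 70 in all 3 large tumors. Pigr, which carries immunoglobulin A across epithelia, had 631, 1290.4 and 610 in large tumors and 2150, 1874, 921 and 767 in middle-sized tumors, and was highest in middle-sized tumors 1 and 2. Of 55 growth factors and receptors 25 had a positive and 23 a negative log2 fold change. The median was 0, the value of members that did not exceed 70 in any of the tumors of the 2 sizes. Shh, the hedgehog ligand of airway epithelium, had 437, 779 and 777 in large tumors and 288, 524, 369 and 533 in middle-sized tumors, and Igfbp3, which binds insulin-like growth factors, 789, 480.2 and 814 in large tumors and 173, 377, 353 and 725 in middle-sized tumors. In each, 1 large tumor lay within the range of the middle-sized ones.

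Stress and inflammatory genes varied from tumor to tumor. The heat shock gene Hspa1a had signals of 158, 183 and 185 in large tumors and 599, 290, 679 and 112 in middle-sized tumors, while the median of 28 heat shock proteins and chaperonins was 0.14 (0.04 without middle-sized tumor 1 or 3). Of 26 genes of folding and stress in the endoplasmic reticulum, 14 had a positive and 12 a negative log2 fold change (median 0.04). Without overlap, 4 of them were lower (15.4%) and 1 was higher (3.85%), beside 2.94% and 4.02% of all genes. At an unadjusted p under 0.05 in limma, 1 was lower and 0 were higher, beside 4.56% and 5.24% of all genes. Ifi27, an interferon-inducible gene, did not overlap, with 563, 629 and 542 in large tumors and 934, 929, 720.0 and 728 in middle-sized tumors. That is 1 of 27 interferon-inducible genes, a share close to the 2.94% of all genes, and 8 of the 27 had a positive and 14 a negative log2 fold change (median -0.06). Hdc, the enzyme of histamine synthesis in mast cells and basophils, had 64.0, 50.1 and 428 in large tumors and 919, 251, 169 and 664 in middle-sized tumors, where large tumor 3 lay among the middle-sized ones.

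The mean of the summed signal was lower in large tumors for the macrophage, lymphocyte and airway lists and higher for ribosome biogenesis, and middle-sized tumor 1 was the highest for lymphocyte and airway genes and the lowest for ribosome biogenesis. The single tumors did not all follow these means, since large tumor 2 was the highest of the 7 for ribosome biogenesis (33518) and the second highest for airway genes (19867), and middle-sized tumor 2 was high for airway genes (19763) and low for lymphocyte genes (3001). The part of these cell types in the differences of other genes was not tested. Hemoglobin, cardiac muscle and mesothelial lists had medians of -0.09, 0.00 and -0.07.

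The cell cycle and apoptosis genes that the study lists for tumors against control lung were looked up between the sizes, and since the study chose them on these samples their direction is not independent evidence. Of 24 genes listed as increased in tumors, 16 had a positive and 8 a negative log2 fold change (median 0.13, -0.10 without large tumor 1 and 0.41 without large tumor 3). Of 21 listed as decreased, 2 had a positive and 13 a negative log2 fold change (median -0.09). Lats2, a kinase of the Hippo pathway, had signals of 468, 247 and 529.9 in large tumors and 1250.0, 584 and 551 in middle-sized tumors 1, 2 and 4, and Anp32a, a nuclear phosphoprotein, 445, 399 and 309 in large tumors and 606, 661, 568 and 476 in middle-sized tumors. Neither overlapped, and the log2 fold changes were -0.90 (standard error 0.30) and -0.60 (standard error 0.17), with adjusted p = 0.412 and 0.313 in limma. Of the 21 genes, 3 were lower without overlap (14.3%), beside 2.94% of all genes. Another probe set of Anp32a overlapped, with 234, 83.7 and 60.8 in large tumors and 257, 111, 62.8 and 97.7 in middle-sized tumors (log2 fold change -0.09). Bcl2, which blocks apoptosis, had 233, 271 and 241 in large tumors and 214, 156, 185 and 137 in middle-sized tumors. Another probe set of Bcl2 overlapped and ran the other way, with 76.5, 107 and 77.2 in large tumors and 136, 82.6, 127 and 42.9 in middle-sized tumors (log2 fold change -0.22). Of 39 genes of the apoptosis machinery 23 had a positive and 15 a negative log2 fold change (median 0.10).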

How the data were processed

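RNA of 14 samples was hybridised by the authors to 1 Affymetrix Murine Genome U74v2 array each. The deposited values are linear intensities (MAS 5.0 signals), which the authors computed in GCOS with default settings and scaled to a target of 250. The detection and change calls that the methods name were not used here. Values below 1e-06 on the array of middle-sized tumor 3 were taken as missing. Control probe sets were left out, and 12422 of 12488 probe sets remained. Of these, 10833 had 1 gene symbol in the annotation used, 396 had several and 1193 none. Of the probe sets with at least 70 on at least 3 arrays the one with the highest mean was kept for each symbol, and probe sets without a symbol were kept under their own name, which left 6914.

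Signals under 70 were set to 70, and log2 values were fitted with limma 3.58.1 (R 4.3.3) as 4 groups over all 14 arrays, letting the spread follow the mean signal. The contrast was large minus middle-sized tumors, with Benjamini-Hochberg adjustment over 6914 genes and a threshold of 0.05. The limma p-values rest on the spread between animals, since each array came from an animal of its own. That spread was pooled over all 14 arrays, control lungs and small pools included, and not taken from the 7 tumors alone. A fit of the 7 tumors gave 236 genes higher and 211 lower at an unadjusted p under 0.05, beside 362 and 315. How few arrays there were sets the precision. The methods' unpaired two-sided test was run on the same log2 values, with a 3-fold ratio of the group means and with no overlap of the groups in place of the change calls.

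The members and the gene lists were chosen with earlier results of these data known, so no list is independent support. The rule for named genes took the 10 genes with the smallest p in each direction, since none was called, Myc, and up to 4 members a list with the largest absolute log2 fold change. List examples beyond that rule, such as defining markers, genes named for not overlapping or for a call without 1 tumor, and genes of the largest spread, were chosen after their values were seen. A gene was counted as not overlapping where every large tumor with a value lay on 1 side of every middle-sized tumor with a value. Summed signals cover list members with a value on all arrays.

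Replicate numbers of the labels do not pair the tumors. Deviations from the group means correlated across genes with r of 0.054, 0.056 and -0.11 between tumors of the same number, and with 0.56 between large tumor 3 and middle-sized tumor 4. Alternatives were other floors, scalings, filters, probe set rules, fits of fewer groups, array weights, a block for the replicate number, zeros kept as deposited, Xist as a covariate, the methods' test, and each array left out in turn. The counts at an unadjusted p under 0.05 in each alternative, the list counts without each tumor and the counts of genes without overlap with 1 tumor left out were added after seeing the data.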

Additional observations from a re-analysis of the deposited data

Results flagged for a closer look

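In 14 of the 121 named genes with values in all 4 middle-sized tumors (11.6%), and in 2 of 37 lists, a single middle-sized tumor stood far from the other 3 by the gap to its nearest neighbour. The cutoff for that gap marks about 5% of groups of 4 normally distributed values. Here the signals were linear and many genes were chosen for large differences or spread, so 11.6% cannot be read against it. Groups of 3 large tumors were not examined.

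Middle-sized tumor 1 held the highest signals of probe set 93078_at (2981, next 1209), of Pltp, the phospholipid transfer protein (1320.4, next 352), and of Pon1 (2719, next 471). It was the lowest for Uqcrc2, a core subunit of complex III, at 734 where the next tumor had 1339. The first of these is the gene with the smallest p of the comparison.

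Middle-sized tumor 4 held the highest signals of Vegfa (684, next 358), of Reg3g, an antibacterial lectin (1087, next 171), and of probe set 97282_at (9373, next 411). It held the lowest signals of Epcam (311, next 438) and of Limch1, a protein of actin stress fibres (118, next 391). Its summed signal of the list of glutathione and antioxidant enzymes was 51244, where the next tumor had 39420.

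Middle-sized tumor 3, whose array has the missing values, held the highest signals of Mxd4 (2475, next 1379), of Cd14 (3012, next 1673) and of Pkm, the pyruvate kinase of muscle and tumors (3319, next 2365), and the lowest of Slc2a3, a glucose transporter (26.9, next 94.3). Its summed signal of the p53 response list was 8447, where the next tumor had 7873. Middle-sized tumor 2 stood apart in Itgb2, the beta 2 integrin of leukocytes (202, next 100.3).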

How the results depend on the processing

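No gene was called in either direction by the limma alternatives that left out no single array, except that the fit with no filter on low signals called 1 gene (Smad3) as higher in large tumors, and the methods' test called 2 as higher and 0 as lower. Leaving out 1 array gave 0 to 4 genes higher and 0 to 6 lower, and the highest counts came without middle-sized tumor 4. By the methods' criteria a fold of at least 2 gave 6 genes higher and 13 lower in large tumors, no floor gave 3 and 9, and a floor of 35 gave 5 lower. Leaving out 1 tumor gave 0 to 3 higher (3 without large tumor 3) and 1 to 8 lower.

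With the replicate number as a block, 0 genes were called, 419 were higher and 367 lower at an unadjusted p under 0.05, and the smallest adjusted p was 0.0771. The numbers do not pair the tumors. With Xist as a covariate 0 were called and the smallest adjusted p was 0.479.

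Of 3421 pairs of a named gene and an alternative, 3400 kept their direction and their side of the threshold, 14 passed the threshold only under the alternative and 7 turned in direction. The log2 fold change of Dalrd3 was 0.21 with zeros kept as deposited, and that of Mki67 was -0.0225 with array weights. Leaving out 1 array moved Mki67 over -0.38 to 1.20, Mad2l1 over -0.35 to 0.77 and Ccna2 over -0.0744 to 0.67, each with its lowest value without large tumor 1. The cause was not tested. The median of all genes was 0.02, and 0.00 with quantile normalization, under which the median of the ribosomal proteins was 0.14.

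The precision is limited by 3 tumors against 4 and by the array of middle-sized tumor 3, on which 25.2% of the values were missing. Signals near 70 carry differences against the floor only.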
